A study of Mus musculus with 12 samples.

Results

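The genes described here are 36 genes of the islet extracellular matrix and of the mesenchymal cells that make it. They were taken from the deposited count tables by matching Ensembl gene IDs to a fixed list of mouse symbols for collagens, proteoglycans, remodelling enzymes and mural cell markers, and all 36 were found among the 54532 genes listed. RNA came from pancreatic islets of male C57BL/6 mice, isolated with collagenase and a density gradient. One genotype was wild type (WT) and the other lacked Sirt3, a mitochondrial deacetylase, selectively in beta cells (KO). STD WT and STD KO mice had been kept on a standard diet with 6.2% fat. HFD WT mice had received 4 weeks of standard diet and then 36 weeks of a diet with 60% of calories from fat. HFD KO mice had received the same 36 weeks of high fat diet after 6, 5 and 6 weeks of standard diet (libraries 1 to 3), so genotype and this earlier period differ together. All 12 libraries are labelled as from mice of 40 weeks, although 6 plus 36 weeks of feeding exceeds that age. The promoter or Cre line behind the deletion, and any allele that the WT mice may carry, were not stated in the labels. Each of the 4 groups holds 3 libraries. Whether the 3 stand for different mice is not in the labels, so the p-values refer to the spread between libraries alone, which may be technical.

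The matrix around islets has several layers. Fibrillar collagens form the fibres of the capsule and interstitium, basement membranes of type IV collagen and laminin wrap the capillaries that run through the islet, and type VI collagen microfibrils link fibres to cells. Fibrillar collagens, small leucine-rich proteoglycans and type VI collagen are made mostly by fibroblasts and pancreatic stellate cells, which carry the receptor Pdgfra or turn on smooth muscle actin when activated, while much of the islet basement membrane is made by endothelial cells and the pericytes (mural cells) that cover them. Beta cells, which carry the deletion, make little matrix of their own. Stellate cell activation and islet fibrosis are known features of long high fat feeding and type 2 diabetes.

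Library totals lay between 16037709 and 20864920 counts, with 20386 to 22360 genes detected. Values below are CPM (counts scaled to a common library size by the trimmed mean of M values), unless named as FPKM (deposited values scaled for gene length and library total). As a check of the tissue label, the 10 beta cell markers, insulin among them, summed to a value between 188620 and 406620 CPM. Acinar cell markers, from the exocrine tissue around islets, summed to between 6399 and 35357 CPM, so the islets carried exocrine tissue in amounts that varied between libraries of 1 group. Sirt3 was measured at 9.04, 11.3 and 11.5 CPM in STD WT against 6.59, 5.97 and 5.86 in STD KO. It stood at 11.4, 9.30 and 11.8 CPM in HFD WT against 7.85, 11.5 and 6.21 in HFD KO. The library labelled HFD KO 2 therefore lies in the WT range for the targeted gene, and each direction below that involves HFD KO rests on labels that this library goes against. In a bulk library, fewer cells of a type and less RNA per cell cannot be told apart.

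A pair of libraries stood apart in these genes. HFD WT 1 held the lowest value of 24 of the 35 members that passed the filter on low counts, and 2 of the 35 lay above their own median there. HFD KO 3 held the highest value of 21 members, and 34 of 35 lay above their own median. Over all genes, between 46.9% and 52.8% lay above their median in any library. The 36 members summed to 665 CPM in HFD WT 1 and 1668 CPM in HFD KO 3, and to between 761 and 1351 CPM in the other 10 libraries. Both libraries come from the high fat groups and lie on opposite sides of the genotype comparison. Many high fat values of the members are therefore given with and without them. The pair was picked from these same member values. Leaving out the lowest HFD WT and the highest HFD KO library lowers the high fat genotype difference and the interaction by construction. Leaving out HFD WT 1 raises the WT diet difference in the same way, and leaving out HFD KO 3 lowers the KO diet difference. Such a shift describes how far a value rests on the libraries left out. It is not a test of the genotype or diet difference. Markers of other cells stood apart there too. HFD WT 1 had the highest beta cell sum, at 406620 CPM with 10 of 10 markers above their own median, and the lowest macrophage sum, at 172 CPM, beside the lowest lymphocyte and ductal sums. HFD KO 3 had the lowest alpha and delta cell sums, at 13179 and 1699 CPM, and a beta cell sum of 247070 CPM, the third lowest. The part of this cell content in the members' values was not tested.

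**Figure D1:**
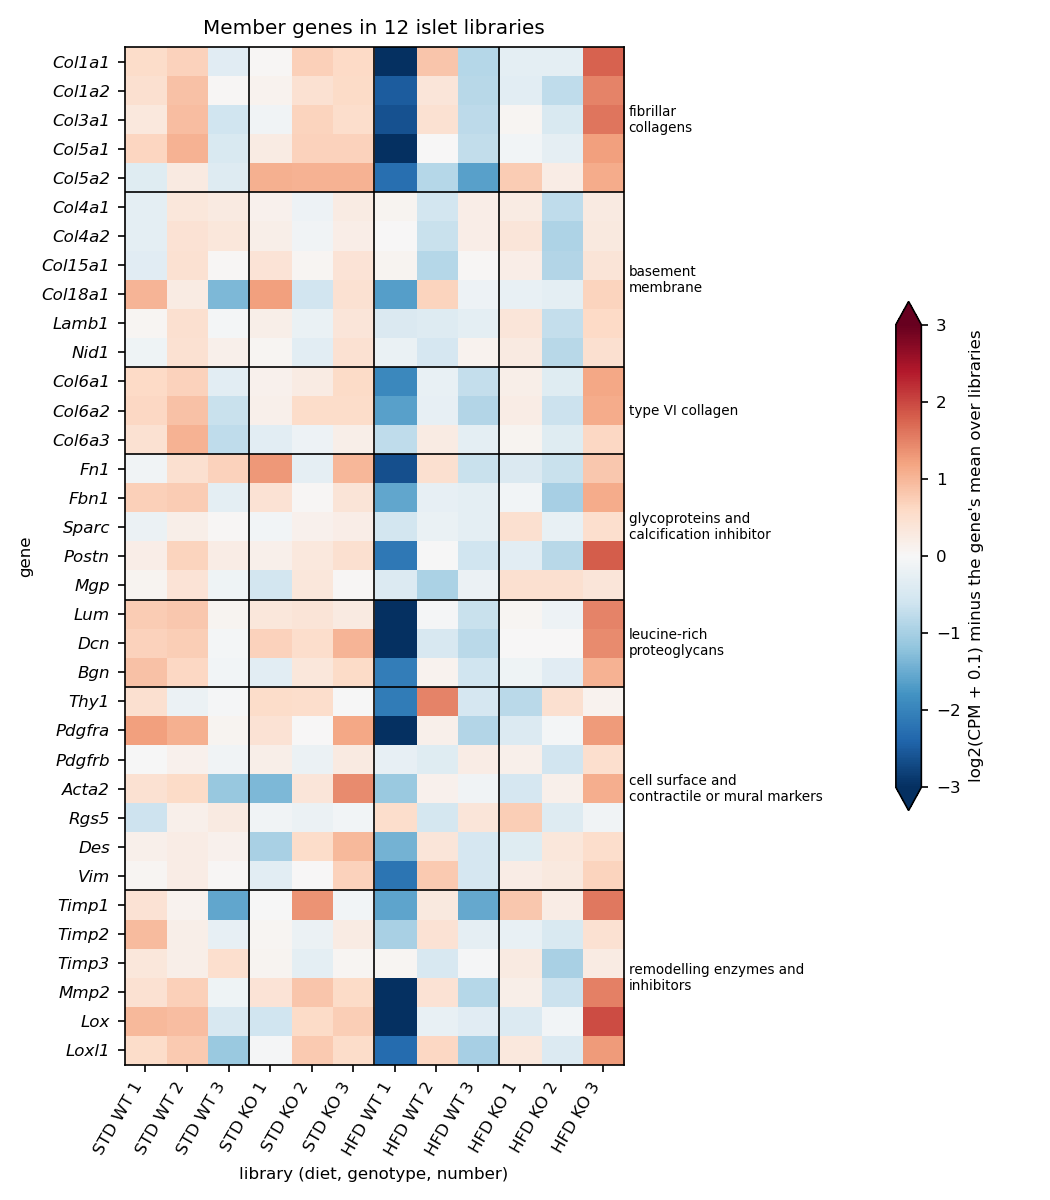
Heat map of the 35 members that passed the filter (rows, grouped by role) in the 12 libraries (columns), coloured by log2(CPM + 0.1) minus the gene's mean over the libraries, with colours capped at 3 in either direction. HFD WT 1 lies below the mean for 30 of the 35 rows, HFD KO 3 lies above it for 34, and the basement membrane rows vary less than the fibrillar collagen rows.

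Per gene length, the members spanned a wide range of levels. In STD WT, Sparc, a collagen-binding glycoprotein of basement membranes and healing tissue, had the highest deposited FPKM at 66.9 ± 5.12 (SD, n = 3). Col4a1, the main basement membrane collagen chain, followed at 57.9 ± 10.1 FPKM and Rgs5, a pericyte regulator of G protein signalling, at 41.9 ± 10.3 FPKM. The mean ± SD ranges of Sparc and Col4a1 overlap. The fibrillar chains Col3a1 at 28.8 ± 14.0, Col1a2 at 20.8 ± 5.92 and Col1a1 at 18.3 ± 6.62 FPKM stood in the middle and did not differ beyond their spread. The lowest were Lox at 0.651 ± 0.329, Timp1 at 0.556 ± 0.398 and Tagln at 0.0393 ± 0.0343 FPKM. For most members the length behind the deposited FPKM matched a mean transcript length (1781 bases for Col1a1, whose longest transcript has 5930). It did not for Lox (4036 against a mean of 4604 bases) and Acta2 (1781 against 1430). The order therefore depends on the length taken. With the longest transcript, Sparc stayed first, Mgp moved from rank 10 to 2 and Col4a1 from rank 2 to 6. Tagln, an actin-binding protein of contractile smooth muscle and activated stellate cells, had 19 counts over all 12 libraries and did not pass the filter. It shares 1241 exonic bases with the opposite-strand gene Gm48529, and no source used here gives the strand setting of the counting.

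By genotype, 0 members passed the test under the standard diet and 2 under the high fat diet. Of the 35 members tested with edgeR's quasi-likelihood test, 0 passed an adjusted p of 0.05 in KO against WT under the standard diet, where 1.71% of all 16076 genes did; 1 member, Col5a2, had an unadjusted p under 0.05 and was higher, where 4.88% of all genes were, and the DESeq2 Wald test called it. Their median log2 fold change was 0.01, beside -0.02 over all genes, with 18 members positive and 17 negative, where 47% of all genes were positive. Under the high fat diet 2 members rose in KO, Col5a2 and Mgp, and 0 fell, where 7.4% of all genes passed (3.9% rose and 3.5% fell), and 8 of 35 had an unadjusted p under 0.05 and a higher value, where 11.9% of all genes did. The member median there was 0.88 beside 0.00 over all genes, and 33 of 35 were positive, where 49.8% of all genes were. Groups did not overlap for 3 members, all higher in HFD KO (Col5a2, Mgp and Dcn), where 11.2% of all genes did so and 13.3% did so in the other direction. Leaving out HFD WT 1 and HFD KO 3 took this median from 0.88 to 0.02, with 19 of 35 positive. A fall was built into that choice of libraries. Leaving out HFD KO 3 alone gave 0.29 with 25 positive, and leaving out HFD WT 1 alone gave 0.54 with 32 positive. Leaving out HFD KO 2, whose Sirt3 lies in the WT range, moved the medians by role the other way. That of the fibrillar collagens went from 1.19 to 1.54 and that of type VI collagen from 1.23 to 1.55. Only the median of the receptors and contractile genes fell, from 0.58 to 0.51. In that fit 6 of these 7 genes were positive, as was every member of the other roles. HFD KO 2 held the lowest member sum of HFD KO, at 761 CPM. A rise of most medians was therefore built into leaving it out, and it is not a test of the genotype difference.

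**Figure D2:**
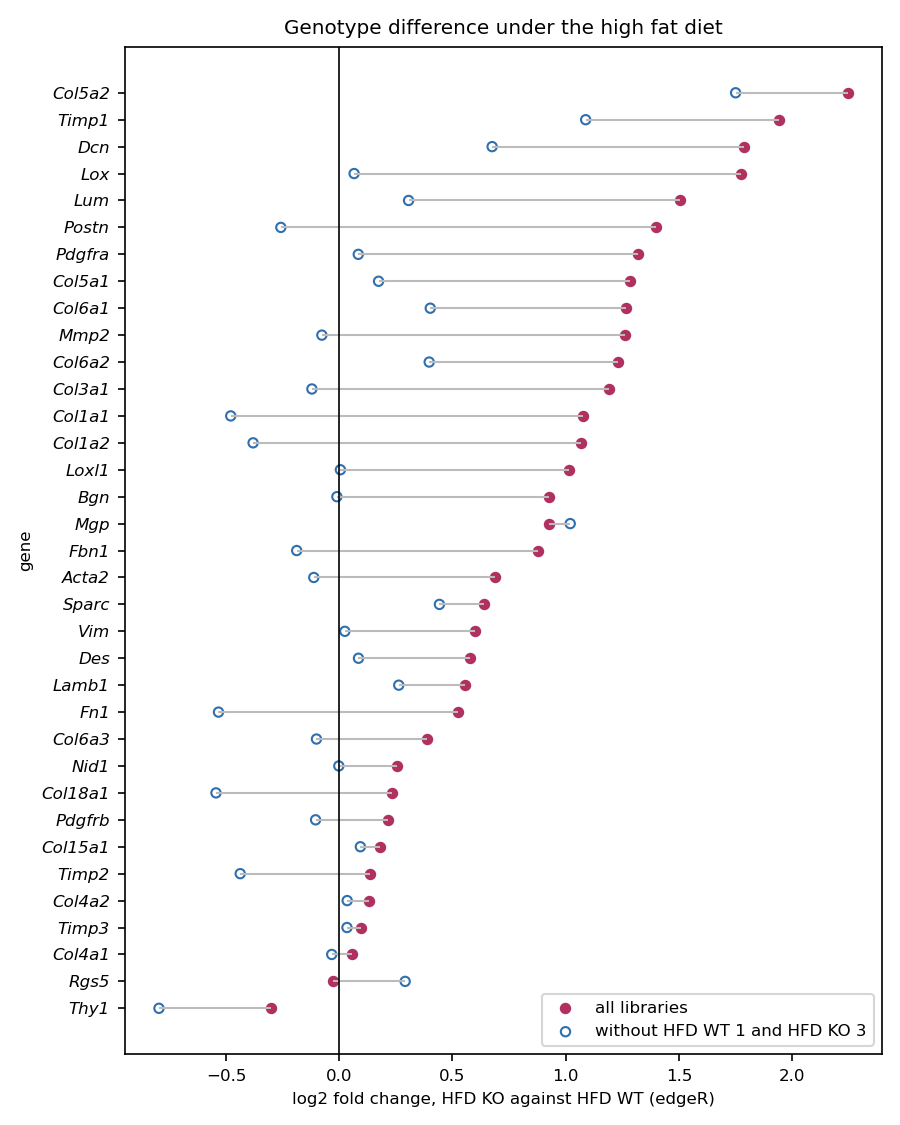
Log2 fold change of HFD KO against HFD WT (x axis, edgeR) for each of the 35 members (rows), from all libraries (filled) and without HFD WT 1 and HFD KO 3 (open). Col5a2 moved from 2.24 to 1.75 and Mgp from 0.93 to 1.02, while Col1a1 moved from 1.08 to -0.48.

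Col5a2 had the smallest p of all members in both genotype comparisons. It encodes the alpha-2 chain of type V collagen, a minor fibrillar collagen that joins type I collagen fibrils and limits their width. The gene (ENSMUSG00000026042) lies on mm10 chromosome 1, 45374321 to 45503282, minus strand. Under the high fat diet it stood at 1.88, 5.19 and 2.97 CPM in WT against 16.1, 10.9 and 20.4 CPM in KO. The lowest KO library was above the highest WT library, and the difference was 2.24 on the log2 scale (SE 0.35, edgeR adjusted p = 0.00295). It passed the threshold under all 25 alternatives, with log2 fold changes from 1.55 to 2.69 and adjusted p from 1.37e-08 to 0.0394. Under the standard diet the values were 7.25, 11.3 and 7.13 CPM in WT against 19.7, 19.4 and 19.5 CPM in KO. These groups did not overlap either, as for 7.52% of all genes in that direction, but the difference of 1.19 (SE 0.33) had an edgeR adjusted p of 0.145. That comparison passed under 4 of 25 alternatives. Col5a2 was higher in KO with no overlap under both diets, as were 3.71% of all genes. HFD KO 2, the library whose Sirt3 lies in the WT range, held the lowest Col5a2 value of HFD KO and lay below 1 of the 6 WT libraries, STD WT 2 at 11.3 CPM.

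The partner chain of Col5a2 did not pass the test in any comparison. Col5a1, the alpha-1 chain that joins Col5a2 in the usual type V molecule, stood at 7.98, 10.5 and 3.62 CPM in the STD WT libraries and at 5.98, 8.25 and 8.16 CPM in STD KO. It stood at 0.536, 5.07 and 2.97 CPM in HFD WT and at 4.76, 4.14 and 11.9 CPM in HFD KO. The groups overlapped under both diets, with log2 differences of 0.02 (SE 0.65, edgeR adjusted p = 0.999) and 1.29 (SE 0.67, edgeR adjusted p = 0.272). The latter was 0.17 (SE 0.45) without HFD WT 1 and HFD KO 3. The ratio of Col5a2 to Col5a1 counts was 0.908, 1.07 and 1.97 in STD WT and 3.29, 2.35 and 2.40 in STD KO. It was 3.50, 1.02 and 1.0 in HFD WT and 3.39, 2.63 and 1.72 in HFD KO. The ratio was higher in every STD KO library than in any STD WT library. In the high fat groups it overlapped through HFD WT 1, where it rests on 35 and 10 counts. Col3a1 is the neighbour of Col5a2 on the chromosome, on the opposite strand at 45311538 to 45349706, and its genotype differences of 0.06 (SE 0.72) and 1.19 (SE 0.73) did not pass the test; the latter was -0.12 (SE 0.53) without those libraries.

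Col1a1, Col1a2 and Col3a1, which make the main fibrils of types I and III, had the same lowest and highest libraries. Col1a1 stood at 37.1, 40.9 and 19.8 CPM in the STD WT libraries, 25.8, 41.7 and 38.1 in STD KO, 2.25, 44.7 and 14.0 in HFD WT and 20.6, 20.5 and 86.7 in HFD KO. Its lowest library, HFD WT 1, and its highest, HFD KO 3, differ 38.5-fold, and the high fat groups overlap. Col3a1 stood at 51.3, 79.3 and 27.1 CPM in the STD WT libraries, 38.2, 66.0 and 59.8 in STD KO, 6.65, 57.1 and 24.1 in HFD WT and 43.4, 30 and 126 in HFD KO. Its extremes were the same libraries, 19.0-fold apart, and the high fat groups overlap here too. The high fat genotype difference was 1.08 (SE 0.85, edgeR adjusted p = 0.474) for Col1a1 and 1.07 (SE 0.69, adjusted p = 0.373) for Col1a2. Without HFD WT 1 and HFD KO 3 the difference of Col1a1 was -0.48 (SE 0.51) and that of Col1a2 was -0.38 (SE 0.38). The ratio of Col1a1 to Col1a2 counts, the chains of type I collagen, lay between 0.385 and 1.04, with the lowest value in HFD WT 1. The median over the 5 fibrillar genes went from 1.19 to -0.12 without those libraries.

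The stretches before the starts of Col1a2 and Col3a1 are shown because these genes shared their lowest and highest libraries. Other members, Dcn and Lox among them, had the same lowest and highest libraries. Each is the 250 bases before the RefSeq start on GRCm38.p6, and capitals mark matches, on either strand, to the TATA box (TATAAA), the CCAAT box (letters CCAAT), the GC box (letters GGGCGG) or, by name, the CArG box of smooth muscle genes. Col1a2 lies at chr6:4505368-4505617 and Col3a1 at chr1:45311288-45311537, both on the plus strand.
Col1a2: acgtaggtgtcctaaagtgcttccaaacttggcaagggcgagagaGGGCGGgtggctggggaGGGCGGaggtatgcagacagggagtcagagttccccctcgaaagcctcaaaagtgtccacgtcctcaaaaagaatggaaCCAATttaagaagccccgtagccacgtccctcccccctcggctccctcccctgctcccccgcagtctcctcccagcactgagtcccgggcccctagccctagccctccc
Col3a1: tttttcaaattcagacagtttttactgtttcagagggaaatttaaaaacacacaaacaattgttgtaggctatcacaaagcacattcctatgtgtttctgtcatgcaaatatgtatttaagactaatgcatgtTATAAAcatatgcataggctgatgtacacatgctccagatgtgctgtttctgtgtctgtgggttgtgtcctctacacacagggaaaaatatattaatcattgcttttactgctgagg
Col1a2 holds GGGCGG at 2 places and CCAAT at 1, and Col3a1 holds TATAAA at 1, so the pair shares no match. RefSeq windows (300 bases, 250 before to 50 after a start) were at hand for 24 of the 36 members, 27 windows in all. A member counts if any of its windows matches, while the percentages count single windows, so the units differ. TATAAA was found in 3 of the 24 (Col3a1, Postn and Vim) and in 13.6% of all 32851 windows, CCAAT in 11 of 24 and 37.4%, and GGGCGG in 14 of 24 and 35.7%. The CArG box was found in 0 of 24 and 1.63%. A match is a description of letters and not of a binding site.

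The basement membrane genes varied less between libraries than the fibrillar collagens, 2.13-fold to 7.51-fold between extremes against 10.9-fold to 38.5-fold. Of these 6 genes, 0 passed the test, or an unadjusted p of 0.05, in any of the 5 comparisons. Col4a1 and Col4a2 form the common type IV collagen network and start head to head on chromosome 8. Their RefSeq starts lie at 11312826 on the minus strand and 11312805 on the plus strand, so that 22 bases are in both transcripts. These are the capitals in the 30 bases at chr8:11312801-11312830 (GRCm38.p6), given once from each strand because the pair kept a near constant ratio.
Col4a1: ccccTTGGAGACGCCGCCCGCGCACTgccg
Col4a2: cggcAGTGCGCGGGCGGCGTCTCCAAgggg
Col4a1 stood at 93.6, 145 and 140 CPM in the STD WT libraries, 126, 104 and 136 in STD KO, 121, 79.0 and 132 in HFD WT and 137, 68.0 and 140 in HFD KO. All 4 groups overlap, and the extremes are 2.13-fold apart, against 38.5-fold for Col1a1. The high fat genotype difference was 0.05 (SE 0.29, edgeR adjusted p = 0.935). The ratio of Col4a1 to Col4a2 counts lay between 1.57 and 1.91 in all 12 libraries.

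Col15a1, a collagen of the zone outside vascular basement membranes, Lamb1, the beta-1 laminin chain, and Nid1, the nidogen that links laminin to type IV collagen, varied within a similar range, 2.48-fold to 2.55-fold between extremes. Col18a1, the precursor of endostatin, varied 7.51-fold, from 5.15 CPM in HFD WT 1 to 38.6 in STD KO 1. Lamb1 was 0.56 higher in HFD KO (SE 0.29, edgeR adjusted p = 0.26). Without HFD KO 2 it was 0.85 higher and passed (adjusted p = 0.0379), and without HFD WT 1 and HFD KO 3 it was 0.26 (SE 0.32). HFD KO 2 held the lowest value of 5 of the 6 genes, and their sum there was 156 CPM, against 321 and 346 in the other HFD KO libraries. The endothelial markers were low in the same library, at 403 CPM against 650 and 670. In HFD WT the sum was lowest in HFD WT 2, at 193 CPM, where the endothelial sum was also lowest at 382 CPM. In STD KO the order differed: the lowest basement membrane sum, 241 CPM in STD KO 2, stood beside an endothelial sum of 623 CPM, and the lowest endothelial sum, 551 CPM in STD KO 1, beside 322 CPM. The part of vessel content in these values was not tested. HFD WT 1 (638 CPM) and HFD KO 3 (670 CPM), which stand apart in fibrillar collagen, did not stand apart in the endothelial sum.

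**Figure D3:**
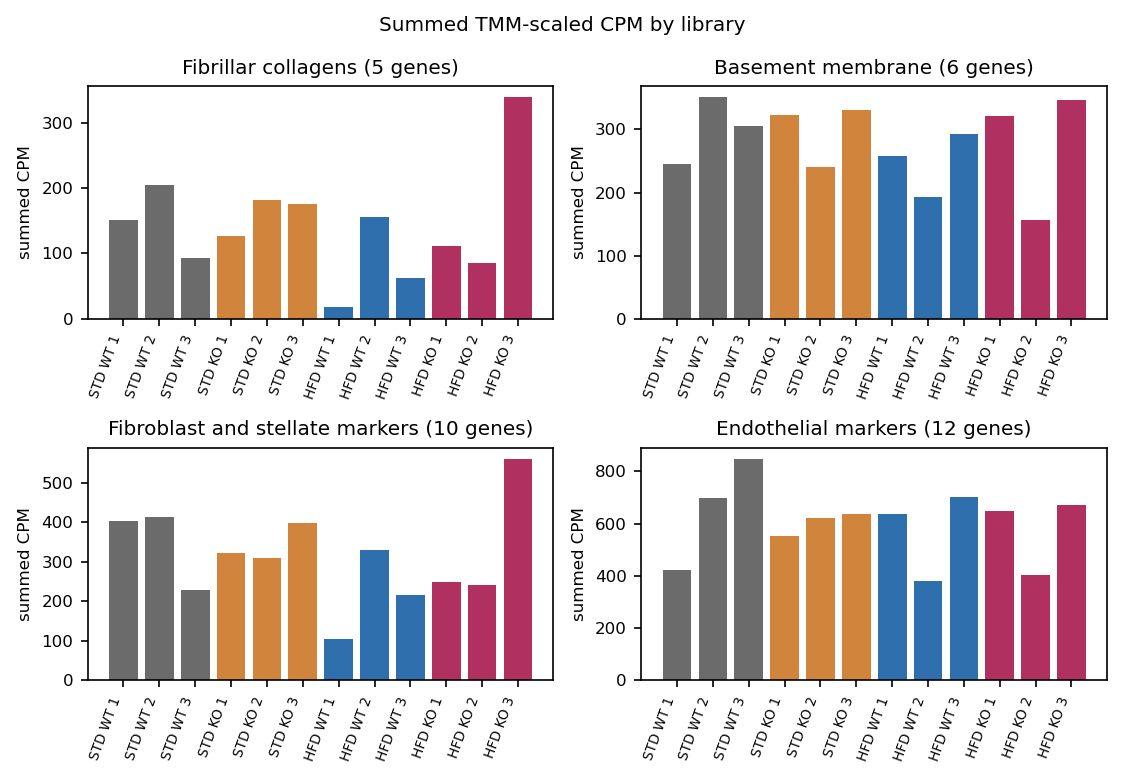
Bars give the summed CPM of 4 gene lists in each of the 12 libraries, coloured by group, on linear axes from 0. The fibrillar collagen sum runs from 17.2 CPM in HFD WT 1 to 340 CPM in HFD KO 3; Col1a1 and Col3a1 are in it and in the fibroblast and stellate list as well. The basement membrane sum is lowest in HFD KO 2 (156 CPM), where the endothelial sum is 403 CPM.

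Of the 3 type VI collagen chains, 0 passed the test by edgeR. In HFD KO against HFD WT, 2 had an unadjusted p under 0.05 and a higher value, where 11.9% of all genes did. Col6a1, the alpha-1 chain, stood at 24.5, 25.9 and 12.8 CPM in the STD WT libraries and 17.7, 19.0 and 23.9 in STD KO. It stood at 4.13, 13.8 and 9.78 CPM in HFD WT and 18.2, 12.5 and 35.8 in HFD KO. The high fat groups overlap through HFD WT 2 and HFD KO 2, and the difference was 1.27 (SE 0.47, edgeR adjusted p = 0.131; DESeq2 adjusted p = 0.0413). Col6a2 differed by 1.23 (SE 0.51, adjusted p = 0.168) and Col6a3, the long chain, by 0.39 (SE 0.42, adjusted p = 0.617). Without HFD WT 1 and HFD KO 3 the differences were 0.40 (SE 0.33), 0.40 (SE 0.47) and -0.10 (SE 0.47) in the same order. The ratio of Col6a1 to Col6a2 counts lay between 0.846 and 1.33, a narrower range than that of the type V pair.

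Mgp, the matrix Gla protein that inhibits calcification of vessels and cartilage, was the other member that passed the test (ENSMUSG00000030218, mm10 chromosome 6, 136872435 to 136875823, minus strand). It stood at 13.2, 9.06 and 15.6 CPM in HFD WT against 24.7, 24.7 and 22.5 CPM in HFD KO. The groups did not overlap, and the difference was 0.93 (SE 0.25, edgeR adjusted p = 0.0462). Under the standard diet it stood at 18.7, 23.4 and 16 CPM in WT and 12, 22.4 and 18.1 CPM in KO, which overlap (-0.14, SE 0.25, adjusted p = 0.999). The high fat difference had the same direction under all 25 alternatives, from 0.46 to 1.11, but missed the threshold in 15, among them 9 of the 12 that leave out 1 library. Adjusted p over the alternatives ran from 0.00898 to 0.552. With offsets corrected for a trend with gene length the difference was 0.50 (SE 0.29, adjusted p = 0.391). Mgp has a short transcript (666 bases), and across all genes the high fat genotype difference correlated with gene length at a Spearman rho of -0.307, over genes that share the same libraries. Without HFD WT 1 and HFD KO 3 the size of the Mgp difference stayed, at 1.02 (SE 0.34), with an adjusted p of 0.077.

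**Figure D4:**
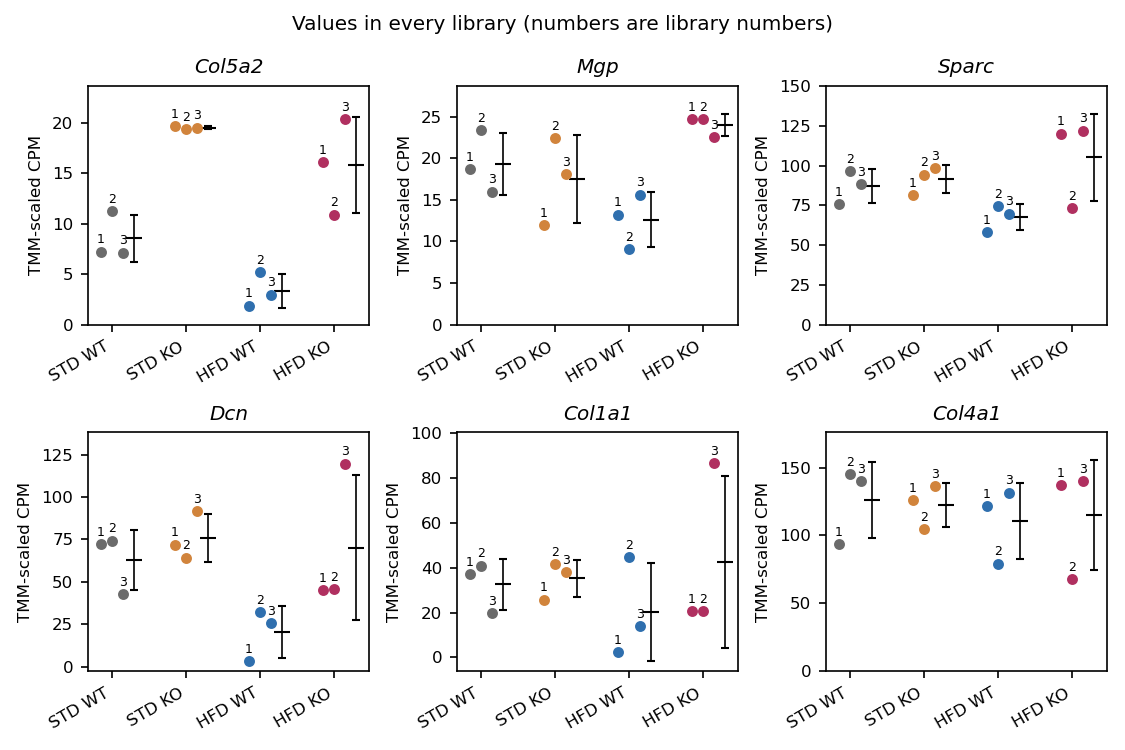
CPM of 6 members in every library (points, numbered within each group), with the mean and SD of 3 libraries beside them; SD bars of Col1a1 in HFD WT reach below 0. Col5a2 and Mgp do not overlap between HFD WT and HFD KO, Dcn does not overlap but spans 3.22 to 120 CPM, and Col4a1 overlaps in all groups.

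Sparc came next to the threshold. It stood at 75.7, 96.8 and 88.6 CPM in the STD WT libraries, 81.7, 94.4 and 98.6 in STD KO, 58.4, 74.4 and 69.8 in HFD WT and 120, 73.4 and 122 in HFD KO. HFD KO 1 and HFD KO 3 were the highest of all libraries, and HFD KO 2 lay within the HFD WT range. The difference was 0.64 (SE 0.19, edgeR adjusted p = 0.066). It passed under 3 alternatives: the DESeq2 Wald test (adjusted p = 0.0135), leaving out HFD KO 2 (0.84, adjusted p = 0.00883), and leaving out STD WT 3 with HFD KO 2 (0.88, adjusted p = 0.0134). With the high fat libraries that stand apart left out, it was 0.44 (SE 0.21, adjusted p = 0.199).

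The other glycoproteins overlapped between all groups compared by genotype. Fn1, fibronectin, the glycoprotein on which cells assemble new matrix, stood at 17.9, 26.8 and 31.2 CPM in the STD WT libraries and 47.3, 15.9 and 38.1 in STD KO. It stood at 3.00, 26.8 and 12 CPM in HFD WT and 14.3, 12 and 33.6 in HFD KO. The values spread 15.8-fold, and the genotype differences were 0.42 (SE 0.67) and 0.53 (SE 0.68), neither past the test; the latter was -0.53 (SE 0.53) without HFD WT 1 and HFD KO 3. Postn, periostin, a matricellular protein of activated fibroblasts, ran from 1.93 CPM in HFD WT 1 to 31.3 in HFD KO 3, and no other library was above 13.9. Fbn1, fibrillin-1 of the elastic microfibrils, ran from 2.20 to 14.7 CPM between the same libraries.

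Dcn had the largest high fat genotype difference among the small leucine-rich proteoglycans, which bind collagen fibrils and growth factors, but it did not pass the test. Decorin stood at 72.4, 74.3 and 42.7 CPM in the STD WT libraries and 71.9, 64.2 and 91.5 in STD KO. It stood at 3.22, 32.2 and 25.6 CPM in HFD WT and 45.2, 45.5 and 120 in HFD KO. The high fat groups did not overlap, and the difference was 1.79 (SE 0.66, edgeR adjusted p = 0.128). Without HFD WT 1 and HFD KO 3 it was 0.68 (SE 0.26, adjusted p = 0.118). Lum, lumican, differed by 1.5 (SE 0.68, adjusted p = 0.203) and Bgn, biglycan, by 0.93 (SE 0.53, adjusted p = 0.315), and both overlapped between the groups. Without those libraries they differed by 0.31 (SE 0.30) and -0.01 (SE 0.37). The sum of the 3 genes ran from 12.9 CPM in HFD WT 1 to 217 in HFD KO 3. Among the other libraries it lay between 55.0 (HFD WT 3) and 157 CPM (STD KO 3).

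Of the 7 tested receptors and contractile genes, 0 passed the test, and 0 had an unadjusted p under 0.05 in any of the 5 comparisons. Pdgfra, the receptor that marks fibroblasts and stellate cells, had 2 counts in HFD WT 1, 0.107 CPM, against 8.49 CPM in HFD KO 3, and its high fat difference of 1.32 (SE 0.84, edgeR adjusted p = 0.366) did not pass and was 0.08 (SE 0.52) without both libraries. Pdgfrb, the receptor of pericytes and stellate cells, stood at 11.3, 12.5 and 10.5 CPM in the STD WT libraries, 12.7, 10.0 and 13.8 in STD KO, 9.49, 8.82 and 13.2 in HFD WT and 12.7, 7.60 and 16.2 in HFD KO. Its extremes were 2.14-fold apart, close to those of Col4a1, and HFD WT 1 did not stand apart. Rgs5 stood at 68.5, 115 and 125 CPM in the STD WT libraries and 97.1, 92.0 and 99.1 in STD KO. It stood at 150, 72.5 and 135 CPM in HFD WT and 174, 79.6 and 97.1 in HFD KO, and HFD KO 1 alone was above HFD WT 1. The high fat genotype difference was -0.03 (SE 0.33) for Rgs5 and 0.22 (SE 0.26) for Pdgfrb, and 0.29 (SE 0.42) and -0.10 (SE 0.28) without HFD WT 1 and HFD KO 3. Over the 7 genes together, the median deviation from a gene's mean was lowest in HFD WT 1, at -1.41 on the log2 scale, so Pdgfrb and Rgs5 do not stand for the whole set there.

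Acta2, smooth muscle actin of arteriolar muscle and activated stellate cells, stood at 21.4, 23.3 and 6.96 CPM in the STD WT libraries and 5.98, 20 and 41.4 in STD KO. It stood at 7.08, 16.9 and 14.4 CPM in HFD WT and 10.9, 17.3 and 33.2 in HFD KO. Its groups overlapped in every comparison, and its high fat genotype difference was 0.69 (SE 0.68, edgeR adjusted p = 0.584), or -0.11 (SE 0.81) without HFD WT 1 and HFD KO 3. Des and Vim, intermediate filament genes of muscle and of mesenchymal cells, were lowest in HFD WT 1 (2.84 and 12.1 CPM). Vim was highest in HFD WT 2 (95.4 CPM), and Thy1, a surface glycoprotein of fibroblasts that T cells also carry, was highest there too (42.7 CPM). Lymphocyte markers summed to 577 CPM in HFD WT 2 and 28.2 CPM in HFD WT 1, the extremes of all libraries, and their part in these 2 values was not tested.

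Of the 6 remodelling genes, 4 (Timp1, Mmp2, Lox and Loxl1) were lowest in HFD WT 1 and highest in HFD KO 3, as were all 5 fibrillar collagens, and 0 passed the test. Mmp2, the gelatinase of mesenchymal cells, stood at 5.60, 6.65 and 3.68 CPM in the STD WT libraries, 5.36, 7.28 and 6.10 in STD KO, 0.268, 5.48 and 2.17 in HFD WT and 4.57, 2.56 and 11.7 in HFD KO. Lox, the lysyl oxidase that cross-links collagen and elastin, stood at 3.39, 3.29 and 1.17 CPM in the STD WT libraries, 1.08, 2.56 and 2.88 in STD KO, 0.107, 1.43 and 1.32 in HFD WT and 1.24, 1.59 and 6.84 in HFD KO. Their high fat differences of 1.26 (SE 0.79) and 1.77 (SE 0.86) did not pass the test. Without those libraries they were -0.08 and 0.06. Loxl1, a lysyl oxidase of elastic fibres, was also lowest and highest there, at 0.697 and 9.46 CPM.

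Timp1, an inhibitor of metalloproteinases that injury induces, stood at 0.734, 0.570 and 0.111 CPM in the STD WT libraries and 0.515, 1.48 and 0.488 in STD KO. It stood at 0.107, 0.656 and 0.114 CPM in HFD WT and 0.989, 0.622 and 1.75 in HFD KO. It rests on 149 counts in all, and its high fat difference of 1.94 (SE 0.83, edgeR adjusted p = 0.176) did not pass and was 1.09 (SE 0.97) without HFD WT 1 and HFD KO 3. Timp3, a matrix-bound inhibitor, stood at 81.8, 73.9 and 92.4 CPM in the STD WT libraries and 68.6, 53.3 and 67.8 in STD KO, with no overlap, lower in KO, as for 7.32% of all genes. The difference of -0.39 (SE 0.28) had an edgeR adjusted p of 0.912. In the high fat groups Timp3 stood at 67.6, 46.4 and 63.7 CPM in WT and 78.9, 33.3 and 77.5 in KO, which overlap. Timp3 shares 1733 exonic bases with Syn3 on the opposite strand, which had 278 counts beside 14774 for Timp3. Timp2, a further inhibitor, ran from 27.2 CPM in HFD WT 1 to 102 in STD WT 1.

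The diet comparisons gave 0 called members in either genotype by edgeR. In WT, where 0% of all genes passed in either direction, 33 of 35 members were lower with the high fat diet, while 51.5% of all genes were higher. Their median was -0.69 beside 0.01 over all genes. Of these, 5 had an unadjusted p under 0.05, where 3.02% of all genes had one with a lower value, and the DESeq2 Wald test called 1, Col5a2. The groups did not overlap for 8 members, all lower with the high fat diet (Col5a2, Lamb1, Sparc, Postn, Mgp, Lum, Dcn and Timp3), where 4.53% of all genes did so and 5.06% did so in the other direction. Col5a2 and Col6a1 had the smallest p, at -1.35 (SE 0.35, edgeR adjusted p = 0.685) and -1.19 (SE 0.47, edgeR adjusted p = 1). These were -1.07 (SE 0.33) and -0.84 (SE 0.43) without HFD WT 1, and the 8 members without overlap then ran from -0.27 (Sparc) to -1.13 (Dcn). The member median was then -0.42, with 31 of 35 negative.

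In KO, where 0.0435% of all genes passed (0.0311% higher and 0.0124% lower with the high fat diet), the member median was 0.00 with 19 positive and 16 negative; 0 members had an unadjusted p under 0.05, where 7.69% of all genes had one with a higher and 4.81% with a lower value, and 0 were called under any of 25 alternatives. That median moved with the library left out: without HFD KO 3 it was -0.47 with 31 of 35 negative, and without HFD KO 2 it was 0.31 with 28 positive. These libraries held the highest and the lowest member sum of HFD KO, so both shifts were built into leaving them out. Mgp was the only one of the 35 members with no overlap, higher in HFD KO than in STD KO (0.46, SE 0.25, edgeR adjusted p = 0.468), where 5.91% of all genes did so. Fn1 came second by p, at -0.75 (SE 0.67, unadjusted p = 0.288, edgeR adjusted p = 0.673). Without HFD KO 3 the differences of Mgp and Fn1 were 0.52 (SE 0.29) and -1.34 (SE 0.75). The 2 diet comparisons share no libraries, but each shares its libraries with the genotype comparisons.

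The interaction, the difference between the genotype effects under the 2 diets, gave 0 called members, also under all 24 alternatives, and 0% of all genes. Its member median was 0.90 beside 0.01 over all genes, with 32 of 35 positive, where 50.9% of all genes were, and 2 members had an unadjusted p under 0.05 and a positive value, where 3.78% of all genes did and 4.12% had a negative one. Mgp had an interaction of 1.07 (SE 0.35, edgeR adjusted p = 0.621) and Col5a2 of 1.05 (SE 0.47, edgeR adjusted p = 0.621). Mgp was the 1 member whose HFD WT libraries all lay below STD WT while its HFD KO libraries all lay above STD KO, a pattern that 0.211% of all genes showed. Without HFD WT 1 and HFD KO 3 the interaction median was 0.09, with 19 of 35 positive, and Mgp and Col5a2 stood at 1.17 (SE 0.43, edgeR adjusted p = 0.222) and 0.56 (SE 0.39, edgeR adjusted p = 0.509). The high fat effect on the members was therefore not shown to differ between the genotypes.

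A further 96 genes of matrix synthesis, cross-linking, turnover, reception and signalling were followed beside the members, of which 95 passed the filter. Under the standard diet 1 of the 95 rose in KO and 0 fell. This was Bmp1, the protease that trims the C-terminal propeptide of fibrillar procollagens, at 97.0 ± 5.59 CPM in STD KO against 51.4 ± 11.3 in STD WT (0.92, SE 0.17, edgeR adjusted p = 0.0195). Under the high fat diet 1 rose and 2 fell. P4hb, protein disulfide isomerase and the beta subunit of collagen prolyl hydroxylase, stood at 1732 ± 393 CPM in HFD KO against 1040 ± 157 in HFD WT (0.74, SE 0.20, edgeR adjusted p = 0.0465). P4hb also serves protein folding in all secretory cells. Loxl2, a lysyl oxidase, stood at 7.29 ± 1.94 against 16.4 ± 5.43 CPM (-1.17, SE 0.28, edgeR adjusted p = 0.0262). Ddr1, a collagen receptor of epithelial cells, stood at 153 ± 33.5 against 228 ± 19.1 CPM (-0.57, SE 0.15, edgeR adjusted p = 0.0428). The high fat values of P4hb, Loxl2 and Ddr1 come from all libraries alone. How far they rest on HFD WT 1, HFD KO 2 or HFD KO 3 is not given. The shares called are close to or below those of all genes (1.34% and 0.367% under the standard diet, 3.9% and 3.5% under the high fat diet).

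The differences between subgroups of these genes were not tested. In WT all 36 further structural matrix genes were lower with the high fat diet (median -0.76), although 0 passed the test, and without HFD WT 1 there were 33 of 36 (median -0.52). Under the high fat diet 30 of 36 were higher in KO (median 0.53), and without HFD WT 1 and HFD KO 3 there were 15 of 36 (median -0.04). The 18 genes of TGF-beta and PDGF signalling, the pathways that activate stellate cells, had a median of -0.20 in that comparison, with 6 positive and 12 negative and 0 called, and in WT 14 of the 18 were lower with the high fat diet (10 without HFD WT 1). The 11 proteases and inhibitor had a high fat genotype median of 0.62 (9 positive), the 14 tested genes of collagen synthesis 0.30, the 12 matrix receptors -0.08 and the 4 cross-linking genes -0.20. Without HFD WT 1 and HFD KO 3 the median of the signalling genes was -0.41, of the proteases and inhibitor 0.15, of collagen synthesis 0.07, of the receptors -0.39 and of cross-linking -0.82.

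Marker sums of the cells that could supply these genes were as follows. The 10 fibroblast and stellate markers, of which Pdgfra, Col1a1, Col3a1, Lum, Dcn and Thy1 are also members, summed to 229 to 414 CPM in STD WT, 310 to 397 in STD KO, 104 to 329 in HFD WT and 241 to 562 in HFD KO. The lowest sum was in HFD WT 1 and the highest in HFD KO 3. The 4 markers that are no members (Pdpn, Dpt, Gsn and Clec3b) were lowest in sum in HFD WT 1, at 87.8 CPM with 0 of 4 above their own median. In HFD KO 3 they summed to 186 CPM with 4 of 4 above it, below STD WT 1 and STD WT 2 at 202 and 187 CPM. The 10 mural markers, of which Pdgfrb, Rgs5 and Acta2 are also members, summed to 152 to 279 CPM over all libraries. They were 236 CPM in HFD WT 1 and 262 CPM in HFD KO 3. Rgs5 made up 150 CPM of the HFD WT 1 sum. The 7 mural markers that are no members summed to 72.5 to 90.7 CPM in STD WT and 65.8 to 111 in STD KO. Their sums were 60.8 to 85.4 CPM in HFD WT and 47.2 to 115 in HFD KO. The median log2 deviation of the 10 mural markers was highest of all libraries in HFD KO 3 (0.67) and second lowest in HFD WT 1 (-0.29). In HFD KO against HFD WT, 6 of the 10 were positive and 4 negative, with the largest log2 difference for Kcnj8 (1.40). Of the 10, 1 rose past the test there, beside 3.9% of all genes. The 12 macrophage markers summed to 172 to 277 CPM in HFD WT and 368 to 437 in HFD KO. All 12 were higher in HFD KO and 4 of them rose past the test, where 3.9% of all genes did, a difference in the same comparison in which Col5a2 and Mgp rose, and its part in their values was not tested. These macrophage counts come from the fit to all libraries alone. Under the standard diet 11 of the 12 were higher in KO and 0 passed the test, with sums of 228 to 273 CPM in STD WT and 279 to 351 CPM in STD KO that do not overlap. Ductal markers were lowest in HFD WT 1, at 653 CPM. None of the fibroblast, mural, endothelial, macrophage or ductal markers was at 0 in any library, although Pdgfra had 2 counts in HFD WT 1 and Cnn1 of the mural list also had 2 counts in its lowest library.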

How the data were processed

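Gene counts and FPKM values of 12 islet libraries, as the authors deposited them, were read. The submitters' processing notes name TopHat2, Cufflinks and DESeq without versions, and mm10; the tool, annotation and strand setting of the counting were not stated there. Each deposited FPKM equals its gene's count over length and over the library's sum (257939 nonzero values, relative tolerance 1e-05), so both units hold 1 measurement. Symbols and coordinates came from GENCODE M21 for 54409 of 54532 IDs.

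The test was edgeR's (4.0.16, with limma 3.58.1, R 4.3.3): filterByExpr (minimum count 10, total 15) left 16076 genes, libraries were scaled by TMM, and a robust quasi-likelihood fit with 1 mean per group gave 5 contrasts. The Benjamini-Hochberg adjustment ran over all tested genes, with a threshold of 0.05. SEs came from the fold change and F statistic. Log2 fold changes are KO against WT or high fat against standard diet. The common biological coefficient of variation was 0.307. Chi-square per degree of freedom between libraries of a group was 29.8 to 115 (genes with at least 30 counts), so over these genes the spread between libraries exceeded counting error. Abundant genes weigh most in that figure. It does not describe members with few counts, such as Timp1 with 149 in all. The script was tested on simulated data.

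The members and lists were chosen with earlier results of these data known. Values in every library are printed for 13 genes chosen by role, for members past the threshold and for the 2 smallest p in each contrast; Col5a1 was added after its values were seen. Same-numbered libraries of the high fat genotype comparison deviated together (r across genes 0.515, 0.41 and 0.336), and unlike-numbered ones did not (-0.382 to -0.0276). Same-numbered libraries under the standard diet did not (-0.00396, -0.175 and -0.234). Some unlike-numbered libraries of other group pairs did, such as STD WT 1 with HFD WT 2 (0.518) and STD WT 3 with STD KO 2 (0.372). These correlations therefore do not show that the numbers are pairs. The main fit was unpaired. The numbers were used as a replicate block in an alternative alone, for every comparison, from the data and not the labels. Alternatives were DESeq2 1.42.0 (size factors, and its Wald test), no filter and a filter of 1 CPM in 6 libraries, limma-trend on log2 of the deposited FPKM plus 1 or 0.1 (mean FPKM of at least 0.5), the compared groups alone, a replicate block, leaving out libraries, and offsets corrected for gene length. Promoter sequences came from RefSeq (GRCm38.p6). Leaving out HFD WT 1 with HFD KO 3 was added after seeing the data. The pair was chosen by the members' own values, so a lower high fat genotype and interaction median is built into it.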

Additional observations from a re-analysis of the deposited data

Results flagged for a closer look

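Mgp had an interaction of genotype and diet of 1.07 on the log2 scale (SE 0.35). It stands out because all 3 HFD WT libraries lay below all 3 STD WT libraries, while all 3 HFD KO libraries lay above all 3 STD KO libraries. The difference itself was tested by the interaction term and did not pass (edgeR adjusted p = 0.621; 0.178 to 0.977 over 24 alternatives, with values from 0.83 to 1.29).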

How the results depend on the processing

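Members called under the high fat diet (2) numbered 4 with the DESeq2 Wald test, 1 with the compared groups alone, 1 in all 3 fits with offsets corrected for gene length, 1 without HFD WT 1 and HFD KO 3, and 1 to 3 when 1 library was left out. Under the standard diet (0) they numbered 1 with the DESeq2 Wald test, with the compared groups alone and without HFD WT 1 and HFD KO 3, and 0 to 1 when 1 library was left out. In WT by diet (0) the DESeq2 Wald test called 1. The high fat genotype median (0.88) was 0.025 without HFD WT 1 and HFD KO 3 and 0.29 to 1.40 when 1 library was left out, and the interaction median (0.90) was 0.092 without the pair; leaving out 1 library gave 0.29 to 1.24 for the latter. With the replicate block the high fat median was 0.955 and 2 members were called, and the block changed no call of a member. The standard diet difference of Mgp (-0.14) was 0.012 without STD WT 2 and 0.068 without STD KO 1 (-0.36 to 0.068 when 1 library was left out), and that of Sparc (0.073) was -0.029 without STD WT 1 (to 0.16 without STD WT 2), -0.12 with offsets corrected for gene length, -0.13 with these and HFD KO 3 left out, and -0.11 with these and the block. None of these passed the test, and the causes were not tested. Length offsets moved the median of all genes to -0.20, -0.10, 0.13 and 0.18 (standard and high fat genotype, WT and KO diet), beside member medians of -0.12, 0.64, -0.64 and 0.24. On the FPKM scales that median was 0.10 and 0.12 (standard genotype), -0.17 and -0.20 (KO diet) and -0.11 and -0.13 (interaction) with 1 and 0.1 added. Over all genes, calls ran from 519 to 2899 (high fat genotype, 1189; most without HFD KO 3), 146 to 484 (standard genotype, 275), 0 to 801 (KO diet, 7; most without HFD KO 3), 0 to 43 (WT diet, 0) and 0 to 31 (interaction, 0).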
